A study of Oryzias latipes with 6 samples.

Results

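The comparison described here is the loss of AXER in medaka hearts at 5 days post-fertilization (dpf), taken over 3 genetic backgrounds at once. RNA was sequenced from whole hearts of 6 genotypes, and each genotype has 6 libraries, so that 18 AXER-/- libraries stand against 18 AXER+/+ libraries and together make up all 36 libraries of the series. The AXER-/- genotypes were AXER-/- alone (KO), AXER-/- with XBP1(S/+) ([KO + XBP1(S)]) and AXER-/- with ATF6(N/+) ([KO + ATF6(N)]), and their counterparts were AXER+/+ alone (WT), AXER+/+ with XBP1(S/+) ([WT + XBP1(S)]) and AXER+/+ with ATF6(N/+) ([WT + ATF6(N)]). XBP1(S/+) and ATF6(N/+) are single edited copies of the native genes that make the active transcription factor constantly. A background here means neither edited copy, XBP1(S) or ATF6(N), and "no active factor" below is short for neither edited copy. It does not mean that native XBP1 and ATF6 were inactive: the paper reports a known target of each pathway raised in KO over WT hearts. All AXER-/- fish descend from 1 TALEN-made line with a short frameshift deletion in exon 1, and the edited alleles are germline changes present in every cell of the fish. The strain is HdrR in the labels and cab in the study's methods. Fish red blood cells keep their nuclei, so a heart library also holds RNA of blood, and fewer cells of a type and less RNA per cell cannot be told apart in it. No source states that libraries of 1 genotype are separate hearts, so p-values measure the spread between libraries, which may be technical. The numbers in the deposited names run through all AXER+/+ genotypes first and then through all AXER-/- genotypes. What this order stands for is not stated, and anything that followed it cannot be told apart from AXER loss.

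AXER, encoded by the medaka counterpart of human SLC35B1, carries ATP into the endoplasmic reticulum (ER) in exchange for ADP. Chaperones in the ER lumen such as BiP use that ATP to fold secreted and membrane proteins. When unfolded proteins accumulate, ER sensors start the unfolded protein response: IRE1 splices XBP1 mRNA so that it encodes XBP1(S), and ATF6 is cut to release its nuclear fragment ATF6(N), and both act as transcription factors for genes that help restore protein folding in the ER. The pooled comparison addresses what AXER loss does to the heart transcriptome irrespective of whether either edited copy is present, and the separate backgrounds show where the response differs. The deposited tables hold Ensembl transcript identifiers, none of which was paired with a gene name here, so the levels of the AXER gene, of ER chaperones and of heart or blood markers were not analysed and the labelled tissue was not checked against its markers.

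Estimated counts per library were 1850806 to 19619136 in the AXER-/- libraries (median 4410661) and 2396092 to 11139737 in the AXER+/+ libraries (median 5041007). [KO + XBP1(S)] had the shallowest libraries, with a median of 2477696, against 5579629 in [WT + XBP1(S)]. The 10 most abundant transcripts took 22.4% ± 2.23 of the counts in AXER-/- libraries and 19.9% ± 2.28 in AXER+/+ libraries (SD, n = 18 each), a difference of 2.51 percentage points (permutation within backgrounds, two-sided p = 0.00235, adjusted p = 0.0094 over 4 measures). By background this share was 24% in KO and 19.6% in WT, 21.3% in both [KO + XBP1(S)] and [WT + XBP1(S)], and 21.8% in [KO + ATF6(N)] and 18.7% in [WT + ATF6(N)]. Total counts, transcripts detected at 1 depth and the distance of a library from its genotype's mean profile gave adjusted p of 0.832, 0.423 and 0.691 in the same test. The 5 libraries farthest from their genotype's mean at equal depth all carried XBP1(S), 3 of them [KO + XBP1(S)] and the other 2 [WT + XBP1(S)].

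AXER loss raised 100 transcripts and lowered 68 of the 18076 tested, in a fit with 1 AXER difference shared by the 3 backgrounds (edgeR's quasi-likelihood test; a call needed an adjusted p under 0.05 together with a fold change over 1.5). Those are 0.553% and 0.376% of the transcripts tested. Raised transcripts had a median log2 fold change of 0.86 (0.60 to 3.30), 37 of them were above 2-fold and 7 above 4-fold. Among these 7, the rises of 3.30, 2.71, 2.48 and 2.11 averaged at most 8.91 CPM (defined below) in any genotype. None of them was called in any single background. Lowered transcripts had a median of -0.76 (-2.58 to -0.59), of which 18 fell more than 2-fold and 10 more than 4-fold, and 8 of these 10 belong to a group that varied together and was not called without WT replicate 2. The median over all tested transcripts was -0.01. A further 54 transcripts that were higher and 73 that were lower in AXER-/- hearts had an adjusted p under 0.05 at a fold change of 1.5 or less, which brings the transcripts past the adjusted p alone to 154 (0.852%) and 141 (0.780%). Pooling narrowed the error: the median standard error of the log2 fold change was 0.20 for the shared difference, against 0.34 with no active factor, 0.35 with XBP1(S) and 0.34 with ATF6(N).

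Called transcripts were found at all levels of expression. Levels are in CPM, counts scaled to 1 common library size after TMM normalization. Under 5 CPM lay 37.8% of all tested transcripts but only 9 of the 100 raised and 8 of the 68 lowered ones. Of the 998 transcripts at 100 CPM or more, 15 were raised (1.5%) and 11 lowered (1.10%). Together the raised transcripts averaged 10336 CPM in AXER-/- libraries and 4939 CPM in AXER+/+ libraries. Some calls rest on reads that salmon divided between transcripts: the estimates were whole numbers in every library (within 1e-06) for 40 of the 100 raised and 35 of the 68 lowered transcripts, against 61.9% of all tested.

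Across backgrounds the mean level of the raised transcripts was nearly the same in AXER-/- hearts, while in AXER+/+ hearts it depended on the background. A mean does not show single transcripts, which could differ either way. The mean over the 100 raised transcripts was 5.14 ± 0.13 log2 CPM in KO and 3.91 ± 0.10 in WT libraries (SD, n = 6 each). It was 5.20 ± 0.13 in [KO + XBP1(S)] and 4.47 ± 0.18 in [WT + XBP1(S)] libraries. With ATF6(N) it was 5.14 ± 0.14 in [KO + ATF6(N)] and 4.01 ± 0.07 in [WT + ATF6(N)] libraries. The [WT + XBP1(S)] libraries ranged from 4.20 to 4.66, all above the highest WT (4.01) and [WT + ATF6(N)] (4.13) libraries and all below the lowest AXER-/- library (4.89). The 68 lowered transcripts showed no such shift: their mean was 3.87 ± 0.15 in KO and 4.64 ± 0.19 in WT, 3.69 ± 0.13 in [KO + XBP1(S)] and 4.64 ± 0.23 in [WT + XBP1(S)], and 3.67 ± 0.11 in [KO + ATF6(N)] and 4.72 ± 0.18 in [WT + ATF6(N)] libraries. The AXER difference itself chose both lists from these libraries, so these levels are a description and carry no test. The choice also favours transcripts with an AXER difference in every background. Over all 18076 transcripts the mean lay between 3.01 and 3.12 log2 CPM in every genotype.

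**Figure D1:**
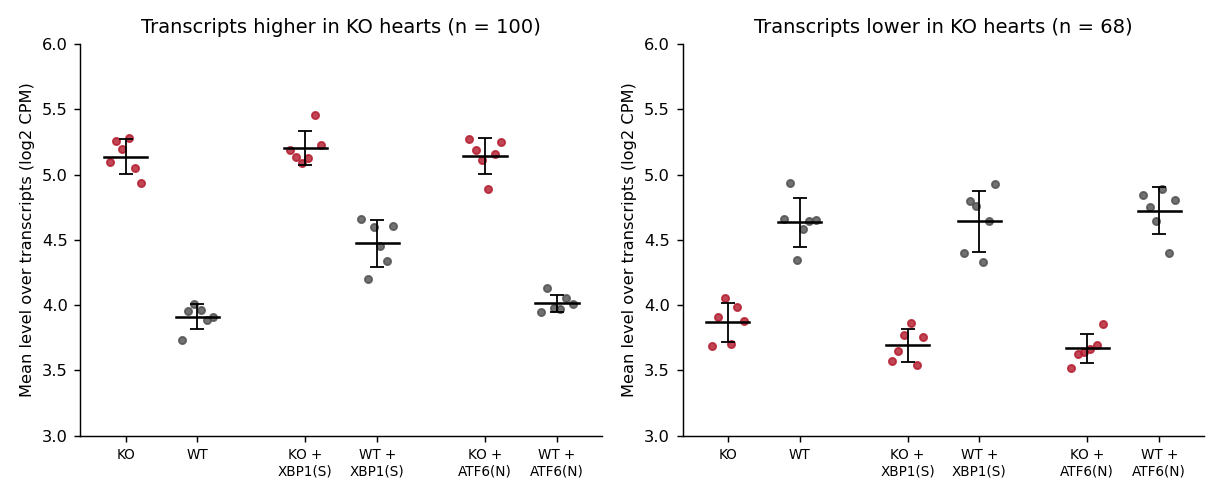
Mean level (log2 CPM, y axis) in each library (points) of the 100 transcripts higher and the 68 transcripts lower in AXER-/- hearts, by genotype, with the mean and SD of 6 libraries (black). Raised transcripts averaged 5.14 to 5.20 in the 3 KO genotypes, and among the WT genotypes they were highest with XBP1(S), at 4.47.

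The 2 largest rises under the rule for naming transcripts were those of ENSORLT00000009120.2 and ENSORLT00000009162.2, which also had the smallest p-values of all. The rule takes called transcripts whose 6 AXER-/- and 6 AXER+/+ libraries do not overlap in any background. ENSORLT00000009120.2 had 327 CPM at the lowest, 351 at the median and 437 at the highest in KO libraries, against 58.6, 67.0 and 82.4 CPM in WT libraries. It had 298, 420 and 527 CPM in [KO + XBP1(S)] against 108, 137 and 161 CPM in [WT + XBP1(S)] libraries. It had 418, 511 and 529 CPM in [KO + ATF6(N)] against 66.3, 76.1 and 85.5 CPM in [WT + ATF6(N)] libraries. All 18 AXER-/- libraries thus lay above all 18 AXER+/+ libraries, and [WT + XBP1(S)] libraries lay above the other AXER+/+ ones. The shared log2 fold change was 2.24 (standard error 0.11, edgeR adjusted p = 6.27e-20), a 4.72-fold rise.

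ENSORLT00000009162.2 followed the same course. Its lowest, median and highest levels were 304, 327 and 386 CPM in KO against 49.0, 63.9 and 69.2 CPM in WT libraries, 277, 393 and 464 CPM in [KO + XBP1(S)] against 98.5, 129 and 146 CPM in [WT + XBP1(S)] libraries, and 394, 474 and 509 CPM in [KO + ATF6(N)] against 62.2, 72.5 and 85.8 CPM in [WT + ATF6(N)] libraries. Again no AXER-/- library overlapped with an AXER+/+ library. Its shared log2 fold change was 2.23 (standard error 0.11, edgeR adjusted p = 6.27e-20). The deviations of the 2 transcripts from their genotype means moved together over the 36 libraries (Pearson's r = 0.91, a description), and both had estimates that were not whole in some libraries (7 for ENSORLT00000009120.2 and 12 for ENSORLT00000009162.2), so they are not counted as separate responses here. Whether they share reads or a gene was not tested.

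Only 1 lowered transcript, ENSORLT00000011757.2, met the same rule. It had 130, 150 and 225 CPM (lowest, median and highest) in KO against 239, 313 and 333 CPM in WT libraries. It had 143, 170 and 187 CPM in [KO + XBP1(S)] against 259, 283 and 481 CPM in [WT + XBP1(S)] libraries, and 138, 160 and 188 CPM in [KO + ATF6(N)] against 258, 292 and 344 CPM in [WT + ATF6(N)] libraries. Every AXER-/- library was below every AXER+/+ library. The shared log2 fold change was -0.89 (standard error 0.08, edgeR adjusted p = 6.97e-11), and it was alike in size in the 3 backgrounds, at -0.87, -0.90 and -0.88 (none, XBP1(S) and ATF6(N)). The AXER difference with XBP1(S) minus that with no active factor was -0.03, with a 95% interval of -0.41 to 0.36.

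**Figure D2:**
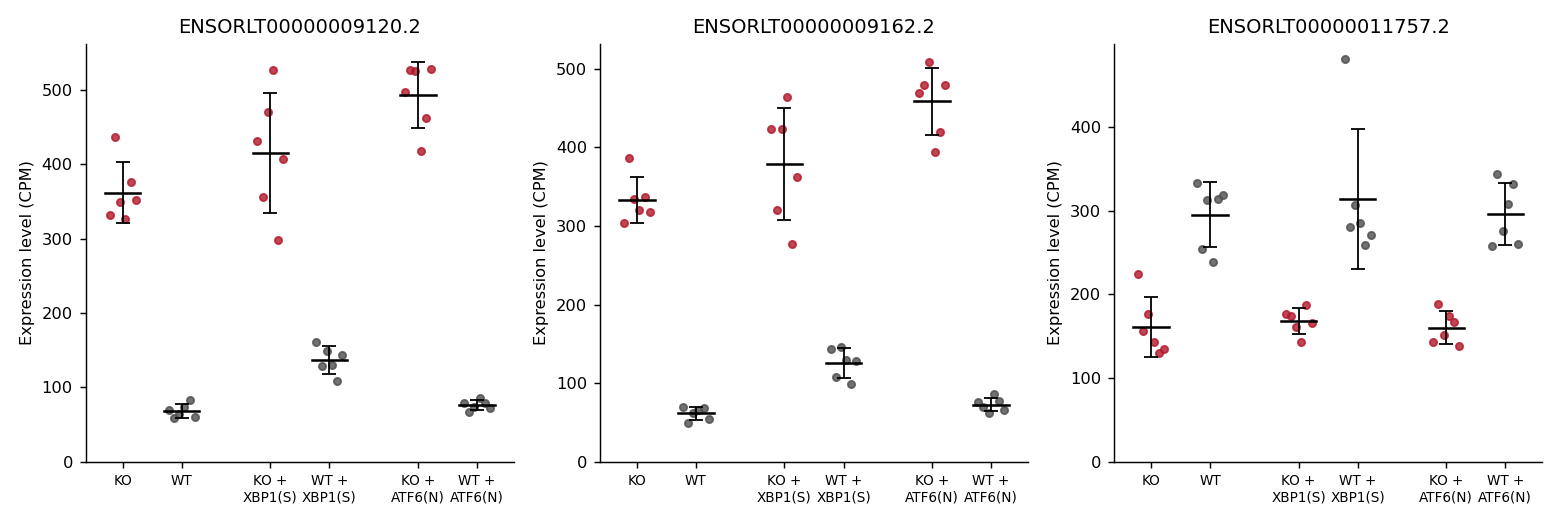
Level (CPM, y axis from 0) of the 3 named transcripts in each library (points) by genotype, with mean and SD of 6 libraries (black). For all 3, the 18 AXER-/- libraries did not overlap with the 18 AXER+/+ libraries, and the single high point of ENSORLT00000011757.2 is a [WT + XBP1(S)] library at 481 CPM.

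Complete separation was more common among rises than among falls. In all 3 backgrounds the AXER-/- libraries lay above the AXER+/+ libraries for 21 transcripts (0.116% of those tested) and below them for 1 (0.00553%), and all 22 were among the calls. Of the 100 raised transcripts, 26 more were separated in 2 backgrounds and 25 in 1, and of the 68 lowered ones 11 were separated in 2 and 18 in 1. Over all tested transcripts 40 rises were separated in 2 backgrounds and 177 in 1, and 19 falls in 2 and 160 in 1, so most transcripts separated in a single background were not called. Comparing all 18 AXER-/- libraries with all 18 AXER+/+ libraries irrespective of background, 10 transcripts were fully above (0.0553%) and 1 fully below (0.00553%). The 21 fully separated rises had mean levels of 9.72 to 727 CPM and shared log2 fold changes of 0.69 to 2.24 (median 1.34). Their median difference was 1.56 with no active factor, 1.02 with XBP1(S) and 1.45 with ATF6(N). For 17 of the 21 it was smallest with XBP1(S), against 38.8% of all tested transcripts for which it was the lowest. The 21 were chosen in these libraries, so this is a description.

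Taken background by background, AXER loss gave the fewest calls in hearts carrying XBP1(S). With no active factor 79 transcripts rose (0.437% of those tested) and 37 fell (0.205%). With XBP1(S) 21 rose (0.116%) and 12 fell (0.0664%), and with ATF6(N) 84 rose (0.465%) and 25 fell (0.138%). The [KO + XBP1(S)] libraries also had the lowest median depth, and the 5 libraries farthest from their genotype means all carried XBP1(S). The part of this in the lower counts was not tested. After all libraries were thinned to 1 depth the counts with XBP1(S) were 20 and 16, and those of the other backgrounds are given at the end of the report. Fitted on their own 12 libraries, hearts with XBP1(S) gave 12 rises and 5 falls. DESeq2 called 54 rises with XBP1(S), again fewer than in either other background (105 with ATF6(N)), but 76 falls with XBP1(S), against 67 with no active factor and 52 with ATF6(N), so the order of the backgrounds turned for falls.

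Nearly all called transcripts kept 1 direction in the 3 backgrounds, but a large share of them passed the test only when the backgrounds were pooled. Of the 100 raised transcripts, 98 were higher in AXER-/- hearts in all 3 backgrounds, and of the 68 lowered ones all 68 were lower, against 13.4% and 15.4% of all tested transcripts that were higher or lower throughout. Of the raised transcripts 17 were called in all 3 backgrounds, 33 in 2, 16 in 1 and 34 in none. For the lowered transcripts the counts were 1 in all 3 backgrounds, 11 in 2, 17 in 1 and 39 in none. With no active factor 55 of the raised and 19 of the lowered transcripts were called. The counts were 18 and 5 with XBP1(S) and 60 and 18 with ATF6(N). Conversely, 37 transcripts were called higher and 28 lower in at least 1 background without a call in the shared difference. A call in the shared difference favours the same direction in every background, and these fits use the same libraries. The directions are therefore a description of how the calls arose.

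The 3 backgrounds share no library, so the calls of one could be set against those of another. The calls are still not fully independent. All come from 1 fit to the 36 libraries, with a common filter, a common scaling and 1 estimate of the spread per transcript. KO and [KO + ATF6(N)] hearts, each against its AXER+/+ counterpart, had 63 called rises in common, which is 79.7% of the rises with no active factor and 75% of those with ATF6(N), and 16 common falls, 43.2% and 64.0% of each list. With XBP1(S) the common rises were 17 with the list for no active factor (21.5% of that list and 81.0% of the XBP1(S) list) and 18 with the list for ATF6(N) (21.4% and 85.7%). With either list, only 1 fall was shared with XBP1(S). It is 8.33% of the XBP1(S) falls, 2.7% of those with no active factor and 4% of those with ATF6(N). Over all tested transcripts, called rises were 0.437% with no active factor, 0.116% with XBP1(S) and 0.465% with ATF6(N). Called falls were 0.205%, 0.0664% and 0.138%. The [KO + XBP1(S)] libraries had the lowest median depth, and its part in the smaller overlap and correlation was not tested. Across the 1967 transcripts at 50 CPM or more, the log2 fold changes of AXER loss correlated at r = 0.58 between no active factor and ATF6(N), and at 0.23 between XBP1(S) and either of them. Genes are not independent replicates, and across all 18076 transcripts these values were 0.22, 0.02 and 0.09 (none with ATF6(N), none with XBP1(S), ATF6(N) with XBP1(S)).

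**Figure D3:**
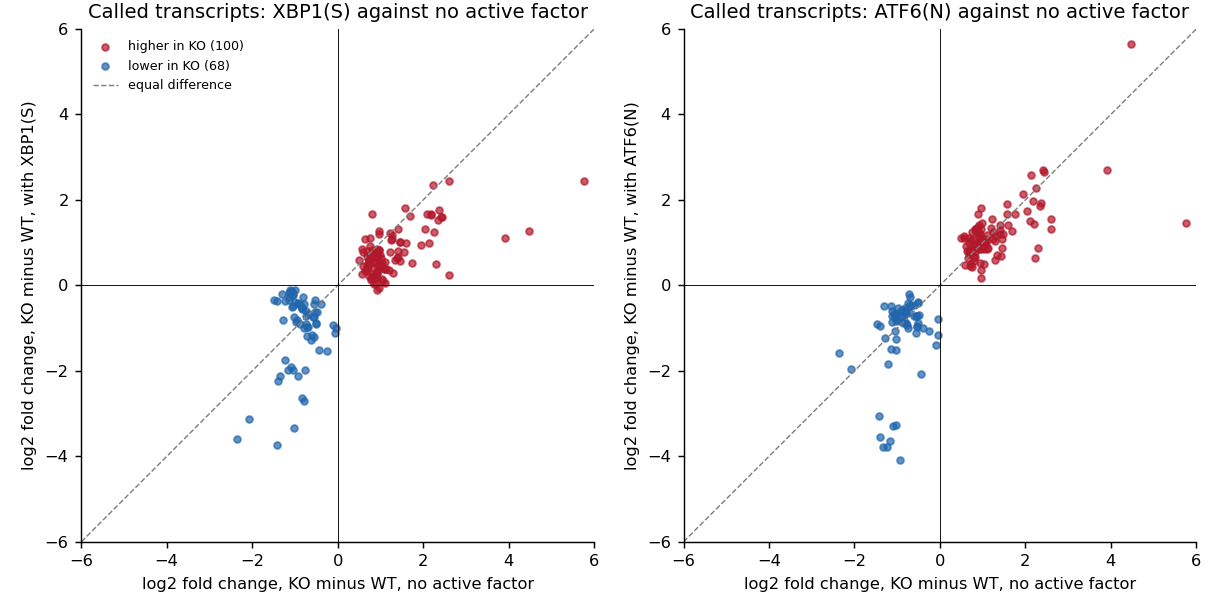
Log2 fold change of AXER loss (KO minus WT) for the 100 raised (red) and 68 lowered (blue) transcripts, with no active factor on the x axis and with XBP1(S) (left) or ATF6(N) (right) on the y axis; the dashed line marks equal differences. Most red points lie under the line on the left, where the medians were 0.98 with no active factor and 0.66 with XBP1(S), and about the line on the right, where the median with ATF6(N) was 1.09.

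A stricter look called transcripts in 24 libraries of 2 backgrounds and examined them in the 12 libraries of the background left out. When the hearts with no active factor were left out, 55 transcripts were called higher in the other backgrounds, and in KO against WT libraries 53 of them were higher, 51 at an unadjusted p under 0.05 (92.7%, against 3.77% of all tested transcripts) and 37 past the full threshold (0.337% of all tested). With ATF6(N) left out, 46 of 48 were higher in [KO + ATF6(N)] than in [WT + ATF6(N)] libraries, 42 of them at an unadjusted p under 0.05 (87.5%, against 5.06%), and the median log2 fold change was 1.19 there and 1.01 in the libraries that chose them. With XBP1(S) left out, 77.0% of 139 were higher in [KO + XBP1(S)] than in [WT + XBP1(S)] libraries but 43 of them at an unadjusted p under 0.05 (30.9%, against 2.73%), and their median log2 fold change was 0.33, against 0.94 in the libraries that chose them. Past the full threshold were 37 of the 48 with ATF6(N) left out (0.526% of all tested) and 11 of the 139 with XBP1(S) left out (0.0609%). The lists are unlike: those of 55 and 48 were called with XBP1(S) libraries included, and that of 139 without them. The [KO + XBP1(S)] libraries also had the lowest median depth. The part of either in the lower shares with XBP1(S) left out was not tested.

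For falls the shares at an unadjusted p under 0.05 were lower than those for rises in all 3 cases, while the shares with the same direction were 90.3% of falls and 96.4% of rises with no active factor left out, 83.1% and 77.0% with XBP1(S) left out, and 95.8% of both with ATF6(N) left out. With ATF6(N) left out, 23 of 24 were lower in [KO + ATF6(N)] libraries, 17 at an unadjusted p under 0.05 (70.8%, against 4.13% of all tested). With no active factor left out, 28 of 31 were lower in KO libraries but 12 reached that p (38.7%, against 3.11%), and with XBP1(S) left out 54 of 65 were lower in [KO + XBP1(S)] libraries and 15 reached it (23.1%, against 5.32%). For no active factor left out, a fit with its own low-count filter called 5 of the 8 lowered transcripts that varied together (described below). How many of the 31 belong to that group was not counted. Past the full threshold were 9 of 24 falls with ATF6(N) left out (0.160% of all tested), 7 of 31 with no active factor left out (0.166%) and 1 of 65 with XBP1(S) left out (0.0277%). Whether rises and falls differ in this respect was not tested.

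**Figure D4:**
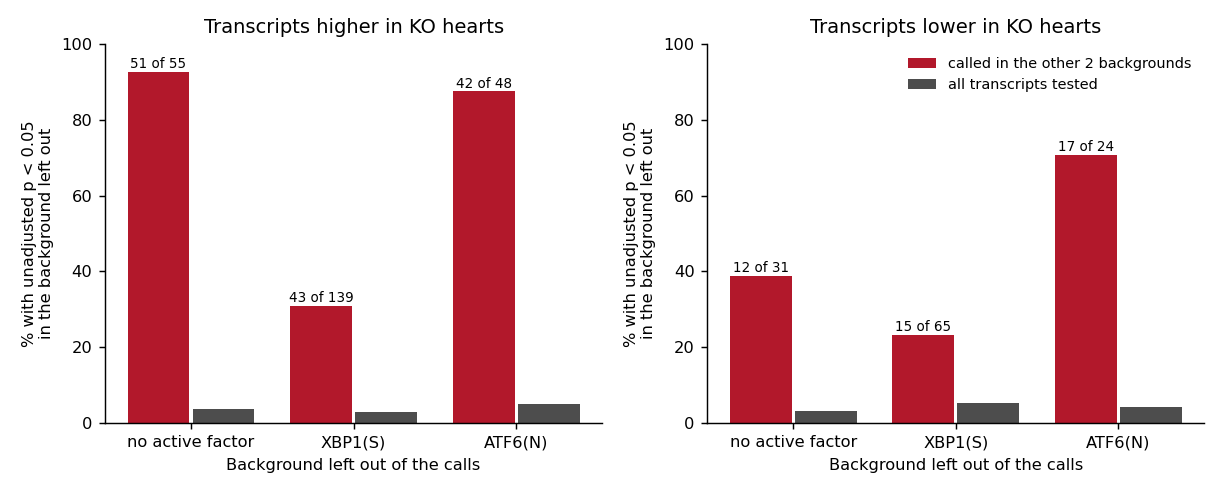
Percentage of transcripts (y axis) with an unadjusted p under 0.05 and the same direction in the background left out (x axis), for transcripts called in the other 2 backgrounds (red) and for all transcripts tested (grey), with rises on the left and falls on the right. The red bars were 30.9% and 23.1% for XBP1(S) and between 38.7% and 92.7% elsewhere, while the grey bars were between 2.73% and 5.32%. The red bars rest on different lists, and only those for XBP1(S) were called without the XBP1(S) libraries.

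The AXER difference was smaller with XBP1(S) for most raised transcripts. Their median was 0.98 with no active factor, 0.66 with XBP1(S) and 1.09 with ATF6(N), and XBP1(S) gave the smallest of the 3 differences for 72 of the 100, against 38.8% of all tested transcripts for which it was the lowest. Among lowered transcripts the medians were -0.88 with no active factor, -0.73 with XBP1(S) and -0.83 with ATF6(N), and the smallest fall was with XBP1(S) for 30, with no active factor for 24 and with ATF6(N) for 14 of the 68, against 35.8%, 32.7% and 31.5% of all tested transcripts whose highest difference was in that background. Both lists were chosen by the shared difference in these same libraries, of which [KO + XBP1(S)] had the lowest median depth. These medians and shares are therefore a description and carry no test.

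Few single transcripts passed the test of this difference. A joint test of any difference between the backgrounds called 9 transcripts (0.0498% of those tested; 1408, or 7.79%, had an unadjusted p under 0.05). The AXER difference with XBP1(S) differed from that with no active factor for 4 transcripts, higher for 2 and lower for 2 (0.0111% each), and from that with ATF6(N) for 10, lower for 9 (0.0498%) and higher for 1 (0.00553%). Between ATF6(N) and no active factor edgeR called 0 and DESeq2 0, with 503 transcripts (2.78%) at an unadjusted p under 0.05. Altogether 12 transcripts were called in at least 1 of these tests. Of these, 8 were raised, 3 lowered and 1 not called in the shared difference. Some of the 12 varied together over the libraries, among them the 2 higher calls against no active factor, so they are not separate responses. For all 12 the AXER difference was smallest in size with XBP1(S). This is a description of selected transcripts, because every single difference that was called involved XBP1(S). The 5 libraries farthest from their genotype means were all among the 12 libraries that carried XBP1(S). Without them, and so with fewer libraries, the joint test called 0 transcripts and the 2 tests with XBP1(S) called 2 and 1. DESeq2 on all libraries called 69 in the joint test, so these counts changed with the libraries used and with the tool.

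Both named rises were among the 12. For ENSORLT00000009120.2 the log2 fold change was 2.41 with no active factor, 1.60 with XBP1(S) and 2.70 with ATF6(N), and that with XBP1(S) was 1.10 below that with ATF6(N) (-1.10, standard error 0.17, edgeR adjusted p = 0.000746). For ENSORLT00000009162.2 the values were 2.44, 1.59 and 2.66, and the difference was -1.07 (standard error 0.17, edgeR adjusted p = 0.00115). Against no active factor the differences were -0.81 and -0.85, with adjusted p of 0.0563 and 0.0546.

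The clearest case in the joint test (adjusted p = 0.000309, edgeR) was a raised transcript, singled out after its values were seen, whose AXER difference was near 0 with XBP1(S). Its lowest, median and highest levels were 37.2, 43.4 and 47.7 CPM in KO against 16.8, 22.3 and 26.6 CPM in WT libraries, and 40.2, 44.2 and 49.0 CPM in [KO + ATF6(N)] against 15.4, 16.5 and 24.3 CPM in [WT + ATF6(N)] libraries. With XBP1(S) they were 64.7, 72.0 and 83.1 CPM in [KO + XBP1(S)] against 59.6, 71.5 and 93.6 CPM in [WT + XBP1(S)] libraries. The AXER-/- and AXER+/+ libraries did not overlap in the first 2 backgrounds and overlapped fully with XBP1(S), where both were above every other library. The log2 fold changes were 0.96 (standard error 0.13), -0.05 (0.13) and 1.33 (0.14) with no active factor, XBP1(S) and ATF6(N).

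A lowered transcript, also singled out after its values were seen, also differed between backgrounds in the same test (joint adjusted p = 0.00359, edgeR). It had 64.2, 68.7 and 81.5 CPM in KO against 155, 208 and 222 CPM in WT libraries, 91.6, 124 and 146 CPM in [KO + XBP1(S)] against 126, 152 and 191 CPM in [WT + XBP1(S)] libraries, and 74.1, 96.4 and 108 CPM in [KO + ATF6(N)] against 145, 176 and 203 CPM in [WT + ATF6(N)] libraries. Only with XBP1(S) did the AXER-/- and AXER+/+ libraries overlap. Its log2 fold changes were -1.48, -0.35 and -0.91 (no active factor, XBP1(S) and ATF6(N); standard error 0.13 each). It was 1 of the 2 higher calls against no active factor, which varied together. The other had similar log2 fold changes of -1.41, -0.36 and -0.95 in the same order. Its joint adjusted p was 0.0646 (edgeR), so the joint test did not call it.

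Among the 168 called transcripts, 39 had at least 1 partner whose deviation from the genotype means followed theirs over the 36 libraries with r above 0.8, forming 14 groups of 2 to 8 members. Whether members of such a group share reads, a gene or a source was not tested. The largest group held 8 transcripts, all lowered, with shared log2 fold changes of -2.58 to -2.06 and adjusted p of 0.0182 to 0.0365, which are among the largest falls called. Their summed level was 34.4 CPM at the lowest, 168 at the median and 932 at the highest in the 18 AXER-/- libraries, against 70.8, 534 and 3898 CPM in the 18 AXER+/+ libraries. The ranges overlapped widely, with 6 AXER+/+ libraries above the highest AXER-/- library and 2 AXER-/- libraries below the lowest AXER+/+ library.

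The 8 transcripts varied widely among libraries of 1 genotype. In WT libraries their sum was 122, 273 and 3898 CPM (lowest, median and highest), with 1 library far above the rest, and in KO libraries it was 74.0, 323 and 932 CPM. With XBP1(S) it was 59.2, 173 and 552 CPM in [KO + XBP1(S)] against 100, 695 and 2944 CPM in [WT + XBP1(S)] libraries, and with ATF6(N) 34.4, 103 and 169 CPM in [KO + ATF6(N)] against 70.8, 893 and 2977 CPM in [WT + ATF6(N)] libraries. The median was thus not lower in KO than in WT libraries and was lower in AXER-/- hearts in the other 2 backgrounds. Without WT replicate 2 none of the 8 was called and without [WT + XBP1(S)] replicate 6 only 1 was, and limma-voom called none. A cell type or tissue piece present in some hearts was not looked for, because the transcripts had no gene names.

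**Figure D5:**
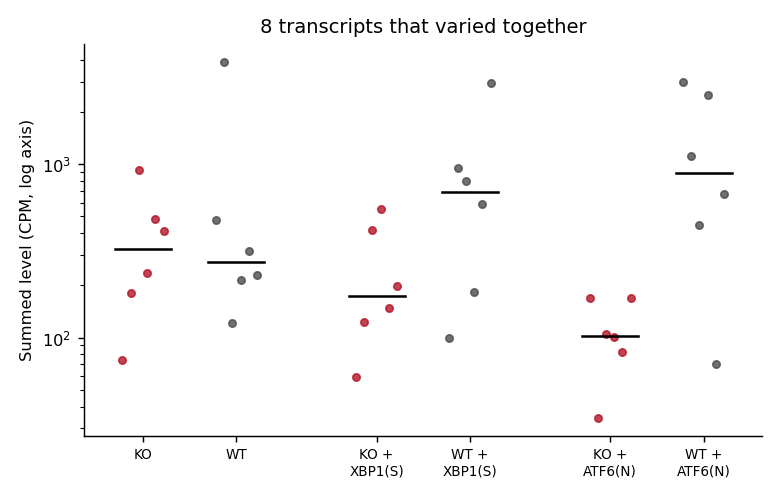
Summed level (CPM, log axis) in each library (points) of the 8 lowered transcripts that varied together, by genotype, with the median of 6 libraries (black line). The AXER+/+ libraries spread from 70.8 to 3898 CPM and the AXER-/- libraries from 34.4 to 932 CPM.

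Leaving out 1 library at a time kept between 85 and 98 of the 100 raised transcripts and between 44 and 64 of the 68 lowered ones among the calls. In all 36 such fits 75 of the raised and 32 of the lowered transcripts were called. Without the [KO + XBP1(S)] and [WT + XBP1(S)] libraries 84 of the 100 raised transcripts and 37 of the 68 lowered ones were called, along with others that made 137 rises and 68 falls in all. Under a test that required the fold change itself to exceed 1.5 (glmTreat) 22 raised transcripts and 1 lowered transcript passed. DESeq2 called 122 rises and 123 falls, among them 97 and 65 of those described here, and limma-voom 103 and 58, among them 92 and 42.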

How the data were processed

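Hearts of 6 medaka genotypes were sequenced with 6 libraries each by the Lasy-Seq protocol, in which libraries are indexed at reverse transcription and pooled. The authors trimmed reads with fastp 0.21.0, mapped them with BWA 0.7.17-r1188 and deposited salmon's estimated counts for 37495 transcripts. Their methods name a mouse cDNA reference, although the identifiers are those of medaka transcripts. Estimates (1.88% not whole) were rounded. Identifiers matched to gene names numbered 0, so gene lists, cell markers and sequences were not used here.

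In R 4.3.3, edgeR 4.0.16 fitted robust quasi-likelihood models after filterByExpr by genotype and TMM scaling: an additive model (background plus AXER genotype) and a model with 1 mean per genotype for single backgrounds and their differences. Calls needed a Benjamini-Hochberg adjusted p under 0.05 over all 18076 transcripts and a fold above 1.5. Library measures were compared in 100000 permutations within backgrounds. Log2 CPM used a prior count of 2. Named were the 2 largest rises and falls among called transcripts of at least 1 CPM without overlap in any background, and just 1 fall qualified. The 2 further transcripts without an identifier, the partner of the lowered one and the group of 8 were chosen after their values were seen. Members, rules and lists were chosen with earlier results of these data known, and the held-out backgrounds and the fit without 5 libraries were added after seeing the data. No pair of libraries held identical values, and within genotypes counts differed by more than sampling noise (chi-square per degree of freedom of 6.20 or more in 90 pairs). The test was also run on simulated counts, drawn independently with the fitted dispersion. Their means came from a fit without AXER genotype, with known fold changes put into some transcripts of the AXER-/- libraries. Such counts cannot show how it behaves where transcripts vary together or libraries are technical repeats. Alternatives used DESeq2 1.42.0 and limma 3.58.1.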

Additional observations from a re-analysis of the deposited data

Results flagged for a closer look

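The AXER difference itself differed between backgrounds by the tests given above: for 4 transcripts between XBP1(S) and no active factor, for 10 between XBP1(S) and ATF6(N), and for 9 in the joint test. For ENSORLT00000009120.2 the difference with XBP1(S) minus that with ATF6(N) was -1.10 on the log2 scale, and for ENSORLT00000009162.2 it was -1.07.

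Among 48 groups of 6 libraries examined, 7 held a library far from the other 5 (Dixon's ratio above 0.625). Chance flags about 1 in 20 where values are normally distributed, which was not tested here. The groups are not all independent either, so 7 of 48 cannot be read as an excess. The total count was 19619136 in 1 KO library and 4728599 in 1 [KO + XBP1(S)] library, each high for its genotype. At 1 depth, 1 KO library had 19981 transcripts detected, the fewest among KO libraries, and the deepest WT library had a distance of 0.489 from its genotype's mean, the lowest of its genotype. ENSORLT00000011757.2 was at 481 CPM in 1 [WT + XBP1(S)] library. The summed level of the 8 lowered transcripts that varied together was 3898 CPM in 1 WT library and 2944 CPM in 1 [WT + XBP1(S)] library.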

How the results depend on the processing

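The shared AXER difference of the 3 named transcripts kept its direction and its call in every alternative that could be run. The 3 were chosen in these same libraries for their size and separation, so this is a description. The counts moved more. Against 100 rises and 68 falls, there were 154 and 141 with no fold threshold, 22 and 1 with glmTreat at 1.5-fold, 26 and 22 among transcripts with whole estimates (fewer transcripts tested), 55 and 37 without the libraries with no active factor, and 48 and 27 without those with ATF6(N) (fewer libraries). DESeq2 called 123 falls. By background DESeq2 called 67 falls with no active factor, 54 rises and 76 falls with XBP1(S), and 52 falls with ATF6(N). With XBP1(S), its own 12 libraries gave 12 rises and 5 falls. Leaving out the 5 libraries farthest from their genotype means gave 12 rises and 1 fall, with fewer libraries and as an alternative chosen after seeing the data. For the difference between XBP1(S) and no active factor, 4 calls became 40 with DESeq2, 2 with no filter and 2 without the 5 libraries. Between XBP1(S) and ATF6(N), 10 became 208 and 1, and in the joint test 9 became 69 and 0 (DESeq2, without the 5 libraries). The cause was not tested. Other alternatives stayed within 1.5 times these counts.

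Leaving out 1 library at a time gave at least 88 rises and 48 to 79 falls in the shared difference, 8 to 23 falls with XBP1(S), 16 to 32 falls with ATF6(N), 1 to 10 calls between XBP1(S) and no active factor, 5 to 16 between XBP1(S) and ATF6(N) and 7 to 12 in the joint test. No paired analysis was possible because the library numbers within a genotype are column positions with no label that links them across genotypes. With all libraries thinned to the depth of the shallowest, the calls were 74 rises and 39 falls with no active factor, 20 and 16 with XBP1(S), and 81 and 25 with ATF6(N).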
